A study of Homo sapiens and Mus musculus with 7 samples.

Results

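The genes described here encode the plasma proteins that hepatocytes make and secrete, including the proteins of the acute phase. They were listed by gene symbol: 49 genes, of which 47 had a probe set carrying that symbol alone in the human table and 45 in the mouse table, with 43 in both. These stand among 19775 human and 18193 mouse genes, and they were covered by 90 of 54613 human and 74 of 45037 mouse probe sets. VTN and SAA4 were measured in the human table only by probe sets annotated to several genes, and A1BG, C3, C5 and TF had no probe set of the same symbol in the mouse table. The genes were picked by symbol and not by a measured value, although earlier results of these data were known when they were listed.

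Total RNA of 7 samples was hybridised to Affymetrix arrays, 1 array per sample, to compare cells and liver with and without Fas (CD95), the receptor for Fas ligand that triggers apoptosis. In HepG2, a human liver cancer cell line, stable knockdown of FAS by the hairpin shRNA6 was set against a control carrying pLKO, the empty lentiviral hairpin vector. In mouse liver, the Fas knockout was set against wild type, both from male C57/BL6 mice 2 months old. HeyA8, a human ovarian cancer cell line, had 1 array each of stable FAS knockdown by shRNA4, stable FAS knockdown by shRNA6 and the pLKO control, and is used here only to show the background of liver genes in cells that are not of liver origin. Another label field calls the knockdown lines knock-outs. Whether the lines were clones, which Fas allele the mice carried and whether liver RNA was pooled is not stated in the labels. Each group held 1 array, so no difference within the HepG2 pair or the mouse pair has a replicate check and none was tested.

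Hepatocytes release most of the proteins of blood plasma: albumin and other carriers, apolipoproteins that carry lipid, clotting factors, protease inhibitors and complement. During inflammation, interleukin-6 and interleukin-1 shift this output, raising positive acute phase proteins such as C-reactive protein, fibrinogen and haptoglobin and lowering negative ones such as albumin and transthyretin. Transcription of many of these genes in liver rests on HNF1, HNF4 and C/EBP factors, with STAT3 carrying the interleukin-6 signal.

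FAS itself, the check of the labels, had a signal of 631 in HepG2 shRNA6 against 1087 in HepG2 pLKO, and of 169 in Fas knockout liver against 560 in wild-type liver. The HeyA8 arrays had 1184 (shRNA4) and 856 (shRNA6) against 2104 (pLKO). A knockdown of this size leaves FAS transcript in both lines. Whether the mouse probe set lies in the deleted part of Fas is not stated, so it may not check the knockout. The array median was 57.8 to 63.4 for human samples and 75.2 in knockout and 79.9 in wild-type liver. A gene was called kept where at least 1 array of its pair was above that array's median, and bright where at least 1 was above its 75th percentile, which was 371 to 402 on the human arrays and 360 to 381 on the mouse arrays. A log2 ratio below is that of signal plus a pseudocount of 12.6 (human) or 20.5 (mouse), and it understates the change of dim genes.

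HepG2 cells expressed nearly the whole set, and HeyA8 cells little of it. Of 42 genes tested between the lines, 40 were higher in HepG2 by limma (adjusted p under 0.05 and at least 2-fold), 0 were lower, and the median difference was 7.55 on the log2 scale, against 0.05 over all genes. The 42 were the genes kept in HepG2, and the measured genes left out were below the array median on every human array. Most of the 42 were above the array median on no HeyA8 array. These genes entered the test through their HepG2 signals alone, which favoured calls of higher in HepG2. Across all 13936 genes tested, 17.8% were called higher in HepG2 and 16.3% lower. The largest differences belonged to TF, transferrin, the iron carrier (11.01 ± 0.19, SE), APOA2 (10.86 ± 0.21) and APOH (10.40 ± 0.29). TF had 33305 and 33676 in HepG2 shRNA6 and pLKO, against 2.67, 6.19 and 2.86 in HeyA8 shRNA4, shRNA6 and pLKO. ALB, albumin, had 26700 and 28771 in HepG2, against 20.3, 6.77 and 3.90 in HeyA8. The HepG2 and HeyA8 arrays did not overlap for either gene.

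Further carriers and lipid proteins completed the 8 with the widest gap: AMBP (10.05 ± 0.19, SE), ORM1 (9.87 ± 0.20), AHSG (9.75 ± 0.46) and APOB (9.74 ± 0.44). In HepG2 shRNA6 and pLKO, AMBP had 19505 and 17985, ORM1 15061 and 13909, AHSG 22465 and 23259, APOB 29682 and 30708, APOA2 33770 and 35045 and APOH 36697 and 40612. Over the HeyA8 shRNA4, shRNA6 and pLKO arrays, AMBP had 4.82, 4.82 and 5.70, ORM1 3.64, 3.20 and 2.41, AHSG 4.35, 45.9 and 8.69, APOB 18.8, 74.0 and 8.44, APOA2 9.56, 2.47 and 6.11 and APOH 6.82, 4.41 and 39.1. The HeyA8 signals of these genes mostly lay near or under the pseudocount, which therefore sets the size of such differences. In HeyA8, 35 of the measured genes were above the array median on no array, and 3 (AFP, C3 and HPX) were above it on all 3 arrays. Only ITIH1 (1.69 ± 0.73, SE, adjusted p = 0.0811 by limma) and PLG (−0.02 ± 0.50, adjusted p = 0.978) were tested without a call. APOA4, the apolipoprotein of intestinal and liver lipoproteins, was the smallest call at 1.93 ± 0.61 (SE, adjusted p = 0.0265), with 101 and 30.8 in HepG2 against 5.30, 11.4 and 5.95 in HeyA8. Without the HepG2 shRNA6 array its difference was 1.23 and no longer called, and that of F11, coagulation factor XI, was 1.42 and no longer called. HepG2 then has 1 array, which is assumed to vary like the HeyA8 arrays.

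**Figure D1:**
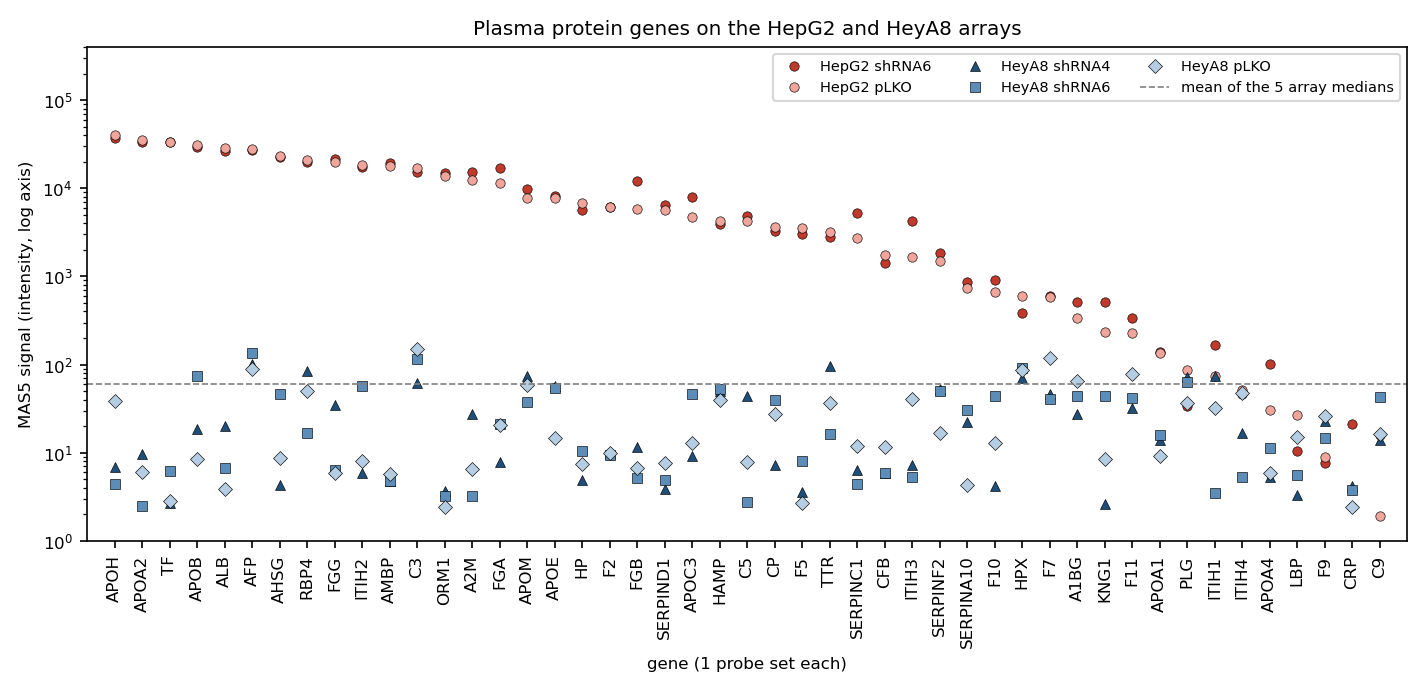
Signal of each of the 47 genes on the 5 human arrays, on a log axis of MAS5 intensity, with HepG2 arrays in red and HeyA8 arrays in blue and the mean of the array medians as a dashed line. For 40 of the 42 genes tested the HepG2 arrays lie above the HeyA8 arrays by the test, while CRP, C9, F9, LBP and ITIH4 lie below the array medians in HepG2 as well. The gene order is for display only, since signals of different probe sets are not compared.

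A group of 5 genes stayed below the array median in both HepG2 samples and were left out of the ratios. They were CRP (21.4 in shRNA6 and 2.41 in pLKO), C9 (16.0 and 1.92), F9 (7.70 and 8.87), ITIH4 (46.8 and 51.8) and LBP (10.4 and 26.6). CRP, C9 and LBP act in innate defence, so that 4 of the 7 measured genes of complement and the acute phase remained. In mouse liver the same 5 genes were all kept and bright.

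FGB, FGA and FGG encode the β, α and γ chains of fibrinogen, the precursor of fibrin, and lie side by side on chromosome 4. They are shown here because their ratios in HepG2 differed although the chains are made for 1 protein. The 250 bases before each RefSeq start site (GRCh38.p14) are FGB chr4:154562730-154562979 on the plus strand, FGA chr4:154590743-154590992 on the minus strand and FGG chr4:154612657-154612906 on the minus strand. Each is written 5′ to 3′ on the strand of its gene. Capitals mark matches on either strand to the HNF1 half-site GTTAAT, the C/EBP motif TTNNGNAA, the interleukin-6 element CTGGGAA and the STAT motif TTCNNNGAA. The letters CTGGGAA can lie within TTCNNNGAA, but no matches overlapped in these windows.
FGB: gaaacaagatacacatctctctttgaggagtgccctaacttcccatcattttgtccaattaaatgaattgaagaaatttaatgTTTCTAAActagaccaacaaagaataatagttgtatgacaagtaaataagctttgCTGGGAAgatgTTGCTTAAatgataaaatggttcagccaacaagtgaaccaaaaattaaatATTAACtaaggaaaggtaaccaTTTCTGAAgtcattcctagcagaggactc
FGA: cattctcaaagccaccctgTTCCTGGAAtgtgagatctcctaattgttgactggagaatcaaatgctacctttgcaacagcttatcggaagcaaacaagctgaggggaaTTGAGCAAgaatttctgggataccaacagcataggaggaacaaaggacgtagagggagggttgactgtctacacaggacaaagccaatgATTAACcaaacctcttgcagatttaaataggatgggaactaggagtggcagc
FGG: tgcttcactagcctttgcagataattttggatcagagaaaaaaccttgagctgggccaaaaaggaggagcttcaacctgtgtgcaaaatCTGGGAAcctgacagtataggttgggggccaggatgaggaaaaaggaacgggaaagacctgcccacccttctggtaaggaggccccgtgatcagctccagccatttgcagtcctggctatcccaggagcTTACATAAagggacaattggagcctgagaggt

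The HNF1 letters stood 51 to 46 bases before the start of FGB and 52 to 47 bases before that of FGA, and not in the FGG window. FGB held 3 C/EBP matches, while FGA and FGG held 1 each. CTGGGAA was present in FGB (112 to 106 bases before the start) and FGG (161 to 155), and the STAT motif in FGA alone (231 to 223). Among 27305 promoters of the same length, 6.22% held the HNF1 half-site, 33.6% the C/EBP motif, 9.30% CTGGGAA and 6.78% the STAT motif. The listed genes with a promoter sequence in the table numbered 37, of which 8, 18, 7 and 9 held these motifs in the same order, or 21.6%, 48.6%, 18.9% and 24.3%. Such matches describe letters in these windows and are not evidence of binding.

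With FAS knocked down in HepG2, a few plasma protein genes of several roles had higher signals, and 24 of the 42 genes kept had a ratio within 0.25 of 0. Differences between the roles were not tested. APOA4, ITIH3, KNG1, FGB and ITIH1 were at least 2-fold higher in shRNA6 than in pLKO, and PLG was at least 2-fold lower. These are 5 and 1 of the 42, where 2.65% of all 12167 genes kept were that much higher and 2.56% that much lower. APOA4 and PLG were kept through 1 array only, so their filter favoured a difference. Among the 37 bright genes, 3 were at least 2-fold higher (ITIH3, KNG1 and FGB) and 0 lower, where 0.373% of all 7775 bright genes were higher and 0.514% lower. At 1.5-fold, 7 bright genes were higher and 1 lower, where 1.53% of all bright genes were higher and 1.95% lower. With the dim genes included, 9 were 1.5-fold higher and 2 lower, where 6.48% of all genes kept were higher and 6.16% lower. The median over the kept genes was 0.05, with 23 above 0 and 19 below, beside −0.01 over all genes. Stellate cell and matrix markers, read beside these ratios, summed to 7173 in shRNA6 against 12492 in pLKO, with 6 of 6 kept markers below 0. The brightest of them, RELN, had 4395 against 8546, and PDGFRB was kept through the pLKO array alone. Bile duct markers summed to 41256 against 47320 (4 of 6 kept below 0) and ovarian and mesenchymal markers to 29902 against 31020 (6 of 7). KRT7 of the bile duct list and VIM of the mesenchymal list were also kept through the pLKO array alone. For PDGFRB, KRT7 and VIM the filter therefore favoured a ratio below 0. Of all 12167 genes kept, 6291 lay below 0. HepG2 is a cell line, so these lists do not measure cell types there. The part of these markers in the result was not tested. With the HepG2 arrays scaled to equal medians, the median over all genes became −0.12, and ratios smaller than this shift have no settled direction.

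**Figure D2:**
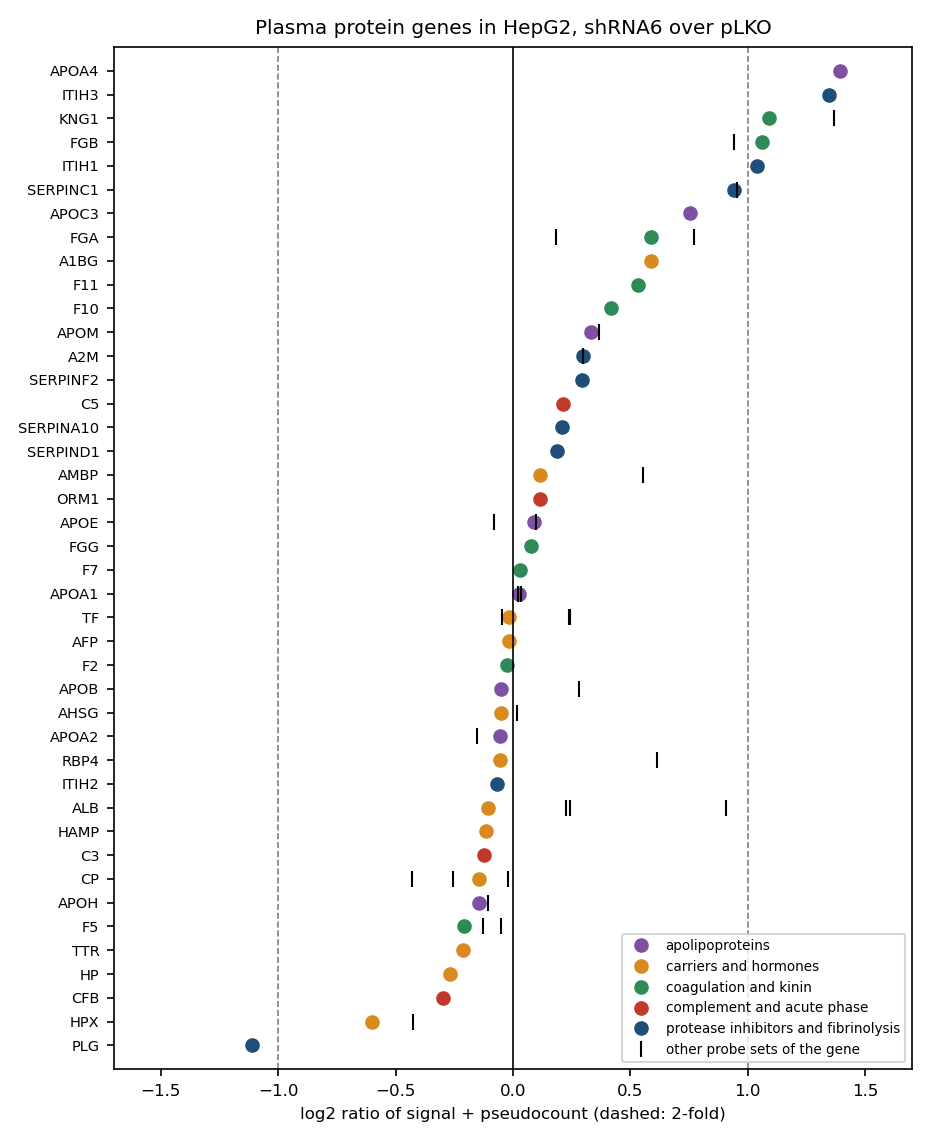
Log2 ratio of shRNA6 over pLKO in HepG2 for the 42 genes kept, coloured by role, with ticks for the other kept probe sets of a gene and dashed lines at 2-fold. APOA4, ITIH3, KNG1, FGB and ITIH1 lie beyond the upper line and PLG beyond the lower one, and 24 of the 42 lie within 0.25 of 0.

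Among genes of coagulation and the kinin system, 9 of 10 were kept, 2 were at least 2-fold higher and 0 lower, 7 lay above 0, and the median was 0.42. FGB had 12105 in shRNA6 against 5792 in pLKO (log2 ratio 1.06), and its other probe set gave 11040 against 5738 (0.94). FGA had 17126 against 11383 (0.59), with 0.77 and 0.18 for its other probe sets. FGG had 21192 against 20066 (0.08). The 3 chains thus ran from 0.08 to 1.06 in the same pair of arrays. KNG1, kininogen, which releases bradykinin, had 517 in shRNA6 against 236 in pLKO (1.09) and 187 against 64.9 by its other probe set (1.37). F11 had 337 against 229 (0.53), and F10, factor X, had 901 against 672 (0.42). F7 (0.03) and F2, prothrombin (−0.03), were closer to no difference. F5, the cofactor of factor Xa, had 3041 against 3516 (−0.21).

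Protease inhibitors and the fibrinolytic zymogen plasminogen had a median of 0.29 over 9 kept genes that ran from −1.11 to 1.35, with 7 above 0, 2 at least 2-fold higher and 1 lower. ITIH3, a heavy chain of the inter-alpha-trypsin inhibitors that stabilise hyaluronan, had 4252 in shRNA6 against 1665 in pLKO (1.35). ITIH1, a related heavy chain, had 165 against 73.9 (1.04). ITIH2 had 17424 against 18242 (−0.07), so the heavy chains did not move as 1 group. SERPINC1, antithrombin, which inactivates thrombin and factor Xa, had 5244 against 2723 (0.94), and its other probe set gave 3156 against 1623 (0.95). A2M (0.30), SERPINF2, the inhibitor of plasmin (0.29), SERPINA10 (0.21) and SERPIND1, heparin cofactor II (0.19), had smaller ratios. PLG had 33.7 in shRNA6 against 87.6 in pLKO (−1.11), but its remaining 2 probe sets were below the array median in both samples, with 27.2 against 15.8 and 6.54 against 11.4. All of these PLG signals lie near or below the array medians.

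Apolipoproteins had a median of 0.06, with 5 of 8 above 0, 1 at least 2-fold higher and 0 lower. APOA4 had 101 in shRNA6 against 30.8 in pLKO (1.39), with the second value under the array median. APOC3, which slows the clearance of triglyceride-rich lipoproteins, had 7895 against 4673 (0.75). APOA1, the main protein of high-density lipoprotein, stood on a dim probe set with 140 against 137 (0.03), and its cross-hybridising probe sets gave 18128 against 17877 and 16869 against 16469. These 3 genes are neighbours on chromosome 11, and their ratios ran from 0.03 to 1.39. APOM (0.33), APOE (0.09), APOB (−0.05) and APOA2 (−0.05) lay in between, and APOH, which binds phospholipid, had 36697 against 40612 (−0.15).

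Carriers and hormones mostly lay near 0: none of the 12 kept genes was 2-fold apart, 10 lay below 0, and the median was −0.08, which is smaller than the scaling shift. A1BG, a plasma glycoprotein, was the highest with 514 in shRNA6 against 338 in pLKO (0.59). HPX, hemopexin, the heme carrier, was the lowest with 386 against 593 (−0.60) and 488 against 659 by its other probe set (−0.42). HP, haptoglobin, which binds free hemoglobin, had 5595 against 6744 (−0.27). TTR, the thyroxine and retinol carrier transthyretin, had 2786 against 3227 (−0.21). AFP, the fetal albumin relative, had 27268 against 27573 (−0.02), and ALB had 26700 against 28771 (−0.11). CP, ceruloplasmin, the copper carrier, had 3291 against 3639 (−0.14). By the probe sets that stood for them, HP, TTR, AFP, ALB and CP thus differed by little in either direction. Other kept probe sets of carriers reached 0.91 for ALB, 0.61 for RBP4, 0.55 for AMBP and 0.24 for TF, and −0.43 for CP. The count of 10 below 0 therefore depends on which probe set stands for a gene. HAMP, the iron hormone hepcidin, had 3946 against 4280 (−0.12).

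The 4 kept genes of complement and the acute phase had a median of −0.00, with none 2-fold apart. CFB, complement factor B, had 1436 in shRNA6 against 1768 in pLKO (−0.30), and C3 had 15469 against 16857 (−0.12). C5 had 4875 against 4201 (0.21), and ORM1, the acute phase glycoprotein orosomucoid, had 15061 against 13909 (0.11). Positive acute phase proteins therefore stood on both sides of 0, with FGB and FGA above and HP and CFB below.

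Other listed genes close together on a chromosome differed in ratio in some cases and had similar ratios in others. On chromosome 3, KNG1 (1.09) lies within a few genes of AHSG, fetuin-A (−0.05). ITIH1 (1.04) and ITIH3 (1.35), also on chromosome 3, lie beside ITIH4, which was not kept. On chromosome 13, F10 (0.42) lies beside F7 (0.03). By the probe sets that stood for them, ALB (−0.11) and its neighbour AFP (−0.02) on chromosome 4 had similar ratios. So did AMBP (0.12) and ORM1 (0.11), within a few genes of each other on chromosome 9.

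The ratios were also read by signal level. Of all genes over 10000 in HepG2, 1.22% were at least 1.5-fold apart in either direction, against 13.1% of all genes at or below 10000. Of the listed genes, 16 had a signal over 10000, with ratios from −0.15 to 1.06, and FGB and FGA (12.5% of the 16) were at least 1.5-fold apart, against 9 of 26 (34.6%) at or below 10000. In 11 of these 16 genes a further probe set of the same gene was kept, and 11 of 16 such probe sets had a higher ratio than the one that stood for the gene. Of the 16, 11 had signals at or below 10000, with 9 of the 11 higher, and 5 had signals over 10000, with 2 of the 5 higher. ALB gave −0.11 by the probe set that stood for it, 28252 in shRNA6 against 23845 in pLKO (0.24) by another bright one, and 1942 against 1029 (0.91) and 1808 against 1543 (0.23) by dimmer ones. RBP4, the retinol carrier, gave 576 against 372 (0.61) by its dimmer probe set and −0.06 by the one that stood for it. The part of signal level in these ratios was not tested. Over all 42 genes, 19 had several kept probe sets, and in 13 of them these had 1 sign.

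In mouse liver without Fas the plasma protein genes had signals close to those of wild type, but 39 of the 45 were over 10000, where 0.589% of all genes were at least 1.5-fold apart. All 45 measured genes were kept, 43 were bright, and 41 had a log2 ratio of knockout over wild type within 0.25 of 0. None was at least 2-fold higher or lower, where 1.77% of all 12047 genes kept were higher and 2.57% lower. No bright gene was 1.5-fold higher or lower either, where 1.43% of all 7065 bright genes were higher and 2.18% lower. The median was 0.02, with 31 above 0 and 14 below, beside −0.02 over all genes, of which 5700 lay above 0 and 6347 below. With the mouse arrays scaled to equal medians, the median over all genes became 0.07. Ratios smaller than this shift have no settled direction, and many of the mouse ratios are that small, so counts by sign in this pair are not settled either. The liver markers were present: Alb had 30452 in knockout and 29417 in wild-type liver, and all 11 measured further hepatocyte markers were kept.

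**Figure D3:**
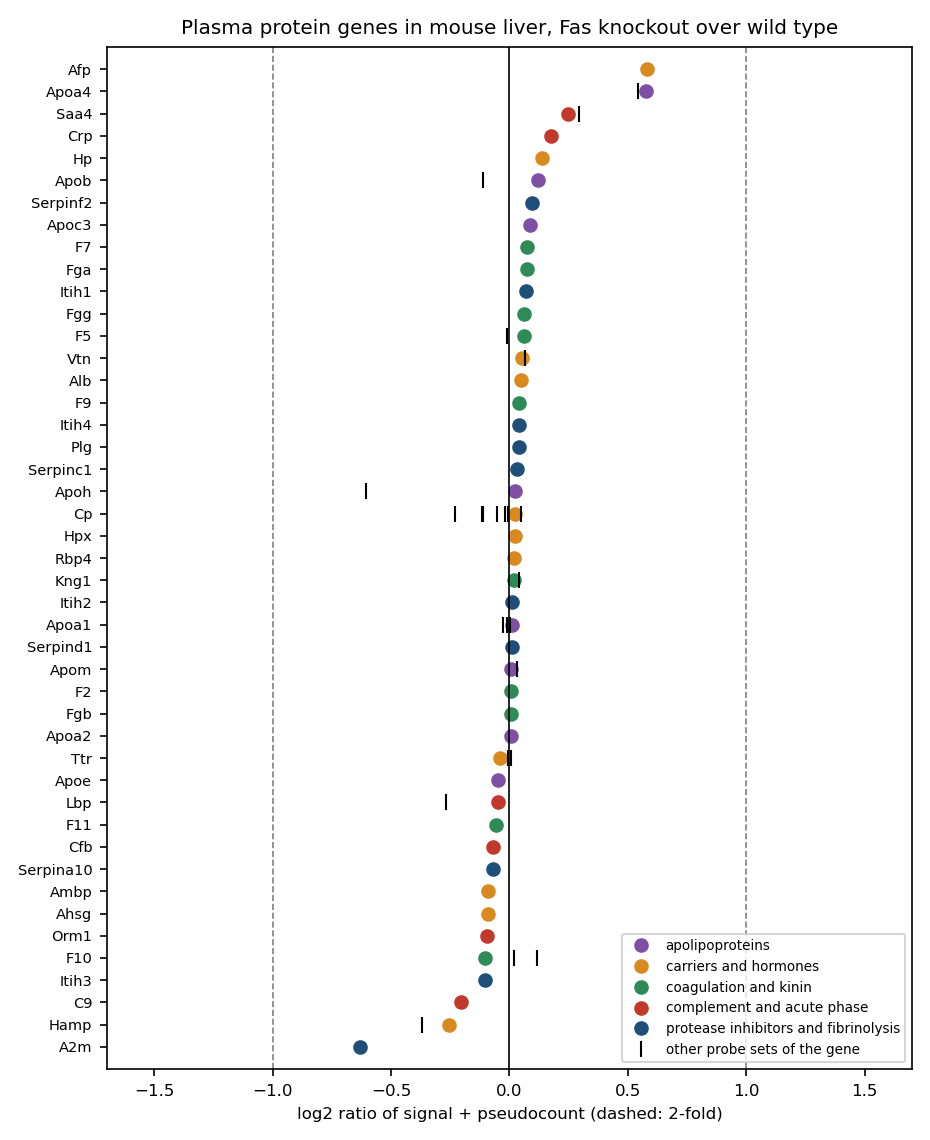
Log2 ratio of Fas knockout over wild type in mouse liver for the 45 genes kept, coloured by role, with ticks for the other kept probe sets of a gene and dashed lines at 2-fold. All points lie inside the dashed lines, and 41 of 45 lie within 0.25 of 0.

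The largest ratios were at Afp and Apoa4. Afp had 223 in knockout against 142 in wild-type liver (0.58), but its other probe sets were below the array medians, with ratios from 0.01 to 0.25. Apoa4 had 4007 against 2678 (0.58), and its other probe set gave 5834 against 4003 (0.54), so both of its probe sets showed a similar ratio. The remaining apolipoproteins ran from −0.05 at Apoe to 0.12 at Apob, and the median of this group was 0.02. Apob, the structural protein of very low density lipoprotein, had 26019 against 23937 (0.12), and Apoc3 had 29885 against 28122 (0.09). Apoh had 30598 against 30077 (0.02), although its dimmer probe set gave 256 against 401 (−0.61).

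The listed genes of complement and the acute phase had a median of −0.06 in knockout liver over 6 kept genes, 2 above 0 and 4 below. Saa4, a constitutive serum amyloid A protein, had 17014 in knockout against 14329 in wild-type liver (0.25), and 6553 against 5338 by its other probe set (0.29). Crp had 20581 against 18197 (0.18). C9, the pore-forming complement component, had 25171 against 28976 (−0.20). Orm1 had 22193 against 23701 (−0.09), and Cfb had 12956 against 13583 (−0.07), with Lbp at −0.05. None of these genes came near 1.5-fold. Among the carriers, Hp had 24960 against 22677 (0.14), and Hamp had 21282 against 25431 (−0.26) and 19815 against 25606 by its other probe set (−0.37). Ahsg had 29143 against 31035 and Ambp, the precursor of bikunin, had 26804 against 28535, each with a ratio of −0.09.

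Coagulation genes lay in the narrowest band of the mouse pair, from −0.10 at F10 (11343 in knockout against 12173 in wild type) to 0.08 at F7 (3864 against 3664), with a median of 0.03 and 8 of 10 above 0. Fgb had 38630 in knockout against 38464 in wild-type liver (0.01), Fga had 26338 against 25043 (0.07) and Fgg had 30279 against 29019 (0.06). Kng1 had 30769 against 30370 (0.02). The protease inhibitors had a median of 0.02 and ran from −0.63 to 0.09, with Serpinc1 at 0.03 and Itih1 at 0.07. Serpinf2 had 15437 against 14462 (0.09), Itih3 had 17894 against 19230 (−0.10) and Serpina10, which inhibits factor Xa with protein Z, had 13105 against 13752 (−0.07). The low value was A2m, with 44.3 against 79.9 (−0.63), which was kept through the wild-type array alone and lay at the array median there. The 39 mouse genes over 10000 had ratios from −0.26 to 0.25. Of all genes at or below 10000, 13.04% were at least 1.5-fold apart. For 12 of the 39 a further probe set was kept, and 10 of 23 such probe sets had a higher ratio than the one that stood for the gene, among them 4 of the 10 at or below 10000.

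Markers of other liver cells were read beside these ratios. Macrophage markers summed to 26187 in knockout against 29979 in wild-type liver, with 8 of 10 kept markers below 0. Sinusoidal endothelium summed to 14819 against 16029 (6 of 8 below 0), stellate cells to 17873 against 19920 (8 of 9 below 0) and neutrophils to 548 against 927 (4 of 4 below 0). Of 11 measured lymphocyte markers 3 were kept, all below 0, and the list summed to 1077 against 1234. Red cell markers summed to 2198 against 1600, with 3 of 3 kept above 0. Bile duct markers summed to 256 against 468, with 2 of 4 kept at least 2-fold lower and 1 higher. Csf3r and Mpo of the neutrophil list and Sox9, Epcam and Cldn4 of the bile duct list were kept through the wild-type array alone. Krt7 of the bile duct, Slc4a1 of the red cells and Des of the stellate cells were kept through the knockout array alone. The filter favoured a difference in the direction each of these markers showed. Hepatocyte markers other than the listed genes summed to 230611 against 224860, with 8 of 11 above 0. In bulk tissue, fewer cells of a type and less RNA per cell cannot be told apart. The part of these markers in the ratios of the plasma protein genes was not tested.

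The HepG2 and mouse pairs were set side by side, gene by gene. Of 43 genes measured in both, 38 were kept in both, of which 13 were above 0 in both, 4 were below 0 in both and 21 had opposite signs. The same counts over all genes were not made, and many of these HepG2 and mouse ratios are smaller than the scaling shift of their pair. No agreement or disagreement between the pairs is read from these signs. At least 1.5-fold differences were found for 10 of the 38 in HepG2 and for 1, A2m, in mouse liver, so no overlap can be read from them. Of all genes kept in mouse liver, 4.89% were 1.5-fold higher and 7.63% lower. APOA4 had 1.39 in HepG2, where its pLKO signal was under the array median, and 0.58 in mouse liver. The other genes 2-fold higher in HepG2 had mouse ratios of −0.10 (ITIH3), 0.02 (KNG1), 0.01 (FGB) and 0.07 (ITIH1). The pairs differ in species, array, growth in culture or in the animal and the means of removing Fas, and the difference between them was not tested.

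**Figure D4:**
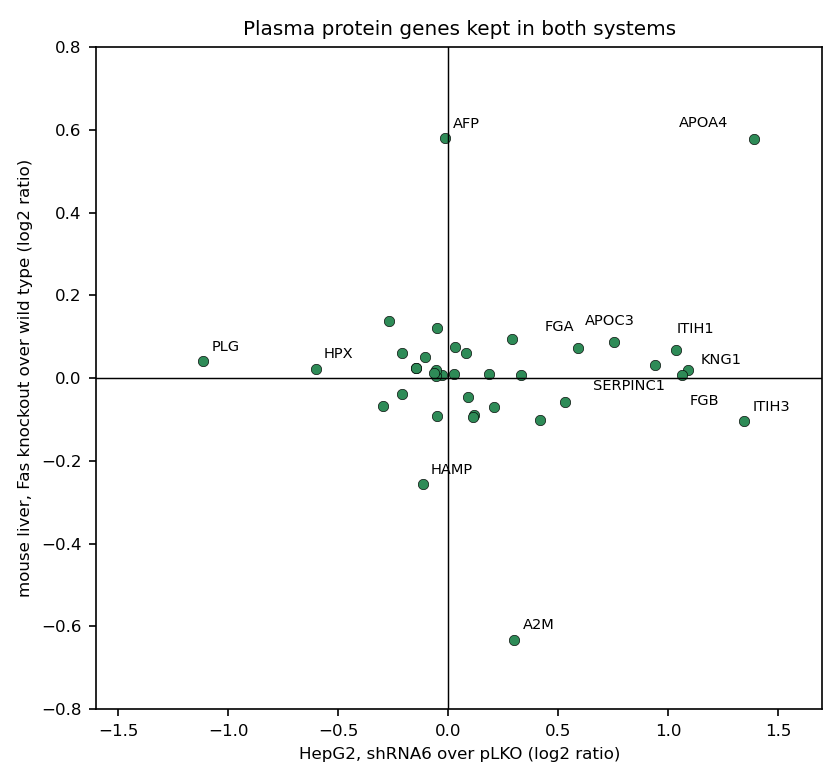
Log2 ratio of shRNA6 over pLKO in HepG2 (horizontal) against that of Fas knockout over wild type in mouse liver (vertical) for the 38 genes kept in both. Points spread from −1.11 to 1.39 along the HepG2 axis and mostly lie within 0.25 of 0 on the mouse axis, with APOA4 and AFP above and A2M and HAMP below that band.

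Plasma protein genes outside the set were read in the same way. Of 47 measured in HepG2, 38 were kept, 0 were at least 2-fold higher, 1 was lower and the median was 0.09. HGFAC, an activator of hepatocyte growth factor, had 239 in shRNA6 against 127 in pLKO (0.85), C4BPA, an inhibitor of complement, had 2047 against 1137 (0.84) and PROZ, protein Z of coagulation, had 238 against 130 (0.81). IGFALS, the carrier of insulin-like growth factors, had 40.9 against 99.0 (−1.06), and was kept through the pLKO array alone. In mouse liver 43 of 43 were kept, none was 2-fold apart and the median was −0.03. Serpina7, thyroxine-binding globulin, had 1771 in knockout against 963 in wild-type liver (0.87), and Orm2 had 486 against 794 (−0.68). Plasma protein genes that carry other symbols in mouse, such as Saa2 (1736 against 2226, −0.36), Lcn2 (−0.25) and Apcs (−0.23), had a median of −0.07 over 13 kept, 4 above 0 and 9 below. Further acute phase genes of that list, named after their values were seen, were Saa1 (8960 against 9763, −0.12), Serpina3n (−0.07) and Saa3 (−0.02).

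Liver-enriched transcription factors had small ratios in HepG2. Of 11 kept none was 2-fold apart, and the median was 0.03. FOXA1, a pioneer factor of liver genes, was the furthest from 0, with 1496 in shRNA6 against 1025 in pLKO (0.54). CEBPB, a factor of the acute phase, had 7049 against 8411 (−0.25). In mouse liver none of 16 was 2-fold apart and the median was −0.07, with Prox1 at 474 in knockout against 772 in wild-type liver (−0.68) and Tbx3 at 321 against 522 (−0.67).

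Genes of interleukin-6 and acute phase signalling had medians of −0.07 over 17 kept in HepG2 and −0.12 over 20 kept in mouse liver. In HepG2, IL1R1, the interleukin-1 receptor, had 807 in shRNA6 against 1621 in pLKO (−0.99), and its dimmer probe set gave 44.1 against 128 (−1.31). JAK2 gave 43.1 against 104 (−1.07) by the probe set that stood for it, above the median in pLKO alone, and 68.6 against 38.0 (0.68) by another. In mouse liver, Il6st, the shared receptor chain gp130, had 1001 in knockout against 3938 in wild-type liver (−1.95) by its brightest probe set. Its 3 other probe sets went the opposite way, with 2229 against 2012 (0.15), 799 against 632 (0.33) and 80.5 against 25.4 (1.14), so no direction can be given for the gene. Il1rn, the interleukin-1 receptor antagonist, had 153 against 276 (−0.78). Socs3, the feedback inhibitor of this pathway, named after its values were seen, had 445 against 679 (−0.59), and −0.50 and −0.32 by its other probe sets. Besides Il6st, no gene of the list was 2-fold apart in the mouse pair.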

How the data were processed

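Arrays of 5 human and 2 mouse samples were analysed. Linear intensities were deposited, which the authors computed with MAS5 according to the submitters' processing notes. As for its version, none was named in the labels or file headers. The 2% trimmed mean was 500.1 on human and 500.004 on mouse arrays, a scaling made before deposit. No detection calls were used. RNA came from a Qiagen miRNeasy kit, per the labels' protocols.

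Control probe sets, 62 human and 64 mouse, were left out. Symbols came from the platform annotation, which can be old; 41037 human symbols matched RefSeq and 0 were updated. A gene stood on its probe set of highest mean signal, with cross-hybridising (_x_at) probe sets used only without another. Ratios used log2(signal + pseudocount), the 25th percentile of each table. The HepG2 and mouse pairs had no test. HepG2 (2 arrays) and HeyA8 (3 arrays) were compared with limma 3.58.1 in R 4.3.3, with the knockdown as a covariate, a trended prior, 2 residual degrees of freedom and p-values adjusted by Benjamini-Hochberg over 13936 genes; the fit was tested on simulated data. Its p-values measure only how these samples vary, which may be technical variation. Other steps used Python 3.11.15, numpy 2.4.6, pandas 2.3.3 and matplotlib 3.10.9. Promoter sequences are those of RefSeq (GRCh38.p14).

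The genes, lists and alternatives were chosen with earlier results of these data known. Every listed gene could be named. Their values on each array were given for the 10 kept genes of largest ratio per direction and pair, those 2-fold apart and the 8 with the largest difference between cell lines, and others are given as examples. Of other genes at most 4 per list and comparison were named, those with the largest ratio. Probe sets annotated to several genes stayed out of the ratios.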

Additional observations from a re-analysis of the deposited data

Results flagged for a closer look

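Several listed genes were also measured by probe sets annotated to more than 1 gene, which no comparison used. Some had far higher signals in HepG2 than in HeyA8, and others did not. A probe set annotated to SEBOX and VTN had 550 in HepG2 shRNA6 and 437 in HepG2 pLKO, against 6.60 to 8.34 in HeyA8. Another of the same annotation had 13.6 in shRNA6 and 44.9 in pLKO (log2 ratio −1.13), against 10.6 to 34.0 in HeyA8. That of PLG and LPA had 7.33 in shRNA6 and 66.6 in pLKO (−1.99), against 3.03 to 44.4 in HeyA8. Probe sets of ORM2 and ORM1 had 21767 in shRNA6 and 20817 in pLKO, and 13127 in shRNA6 and 12383 in pLKO. The probe set of HPR and HP had 6803 in shRNA6 and 7563 in pLKO. The probe set of SAA2-SAA4 and SAA4 had 9690 in shRNA6 against 5011 in pLKO (log2 ratio 0.95), and 106 to 117 in HeyA8. These probe sets cannot assign the signal to 1 of the genes they name.

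PLG was lower in HepG2 shRNA6 than in HepG2 pLKO (−1.11), while in HeyA8 it was higher with both hairpins, 0.78 with shRNA4 and 0.63 with shRNA6, against their shared pLKO array. This difference between the lines was not tested, and the signals were 33.7 to 87.6 in HepG2 and 36.8 to 71.9 in HeyA8, near the array medians.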

How the results depend on the processing

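The count of genes at least 2-fold higher in HepG2 shRNA6 was 5 of 42, where 2.65% of all genes kept were higher. It was 2 with a pseudocount equal to the table median and 2 with arrays scaled to equal medians. The shares over all genes at these alternatives are not given here, so those counts have no background beside them. It was 3 with a filter at the 75th percentile, where 0.373% of all bright genes were higher. At a threshold of 1.5-fold it was 9, where 6.48% of all genes kept were higher and 6.16% lower. The count at least 2-fold lower, 1, was 0 with the larger pseudocount, 0 with the stricter filter, 0 with the mean over all probe sets of a gene and 2 at 1.5-fold. The HepG2 median of 0.05 was −0.058 with equal medians, where that of all genes was −0.12. The mouse median of 0.02 fell just below 0 with quantile normalization. The mouse count at least 2-fold lower, 0, was 1 at 1.5-fold (A2m); the mouse count higher stayed 0. With the larger pseudocount, APOA4 was 0.83, ITIH1 0.75, PLG −0.65 and A2m −0.37. With the mean over probe sets, ALB was 0.32, RBP4 0.28, APOC3 0.40, PLG −0.32, Afp 0.22 and Apoh −0.29, so that ALB, RBP4 and Apoh changed sign. The other 329 HepG2 and 357 mouse values of single genes moved by less than 0.25. ITIH1 had an adjusted p under 0.05 between HepG2 and HeyA8 with the larger pseudocount (0.96), equal medians (1.67) and without the HeyA8 shRNA4 array (2.20). Genes called higher in HepG2 than in HeyA8, 40, numbered 38 to 41 when each array was left out in turn, and 0 were called lower each time. No gene past 2-fold or called by the test changed sign under the alternatives run. No paired analysis was possible because each group holds 1 array, so the groups share fewer than 2 replicate numbers. The number of arrays limits all precision, and signals near the array median cannot be told from background.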

Other observations

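In HepG2, PCK1, the cytosolic enzyme of gluconeogenesis, had 138 in shRNA6 against 13.5 in pLKO (log2 ratio 2.53). It was kept through the shRNA6 array alone, and the pLKO signal lay near the pseudocount, so the size of this ratio is uncertain. The asialoglycoprotein receptor genes ASGR1 (7719 against 7231, 0.09) and ASGR2 (10350 against 11161, −0.11) were near 0. PCK1 and both receptor genes belong to the further hepatocyte markers, of which 6 were kept in HepG2. Of these 6, 5 lay above 0, and their median was 0.24. ASGR1 and the mouse Pck1 were chosen after their values were seen. In mouse liver Pck1 had 22165 in knockout against 22986 in wild-type liver (−0.05), and Cyp7a1, the rate-limiting enzyme of bile acid synthesis, had 7896 against 6310 (0.32). SERPINA3, an acute phase inhibitor of proteases named here after its values were seen, had 6344 in shRNA6 against 10793 in pLKO (−0.77).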
